A study of Mus musculus with 12 samples.

Results

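The regions described here were the broad stretches of open chromatin away from promoters in mouse embryonic stem (ES) cells: merged ATAC-seq peaks at least 1500 bp and at most 5000 bp wide on autosomes 1 to 19, with a center more than 1 kb from any transcription start site (TSS) of the GENCODE annotation of mm10. They were chosen by their measured width. Of 170548 regions in the merged list, 166526 lay on autosomes, 137897 of these were distal, and 825 were broad and distal. They made up 0.598% of the distal regions and 2.52% of the distal bases. The comparison set was the 137061 distal regions under 1500 bp, called narrower here. Another 2675 autosomal regions of the same width had a center within 1 kb of a TSS, so that 23.6% of all broad autosomal regions were distal.

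ATAC-seq uses a transposase that inserts adapters into accessible DNA. The peaks were taken to come from 12 libraries in 6 groups of 2. All 12 were from ES cells grown in serum with LIF and both 2i inhibitors. The list names no library. The paper also used earlier ZHBTc4 data from serum with LIF alone, and whether their peaks entered the list is unknown. In ZHBTc4 cells a Tet-Off promoter drives Pou5f1, which encodes OCT4, and cells were OCT4 ON without doxycycline (dox) or OCT4 OFF after 24 hr of dox at 1 µg/ml. In 2TS22C cells a Tet-Off promoter drives Sox2, and cells were SOX2 ON or SOX2 OFF at 26 hr and at 40 hr, with the same dose. The list holds only positions merged over all groups, with no read number and no value per library. Which line or treatment opened a region, and the depth behind it, is therefore unknown, and a wide region can be 1 peak or a chain of overlapping peaks from several libraries.

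Distal open regions in ES cells are often enhancers, short stretches where factors such as OCT4, SOX2, KLF4 and ESRRB bind. Insulators bound by CTCF and transposable elements that carry factor binding sites are also accessible. CpG islands are stretches where CpG dinucleotides have escaped the loss seen elsewhere in the genome. Most lie at promoters, but others, called orphan islands, lie within or between genes. Young repeats and segmental duplications are hard to map, since a read fits several copies.

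Member widths had quartiles of 1572, 1676 and 1885 bp. The narrowest members were 1500 bp wide, in an intron of the lincRNA Gm48970, in an intron of Ebf3 and in a coding exon of Zfhx3, and excluded regions 1 bp narrower lay in exons of Tra2b and Kifc5b. The widest members measured 4913, 4696, 4654, 4644 and 4331 bp. Of these, 4 were intergenic, at chr17:3027906-3032818, chr4:3064103-3068756, chr4:3080119-3084762 and chr11:3100424-3104754, and all 4 lay close to the first assembled bases of their chromosomes. The remaining one, at chr2:77924619-77929314, overlapped exons of Cwc22, a splicing factor gene. Above the upper limit, 11 autosomal distal regions were left out. The 3 of these nearest to it were 6697, 7344 and 7436 bp wide, in introns of Mapk6, Tmem267 and Sumo2.

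**Figure D1:**
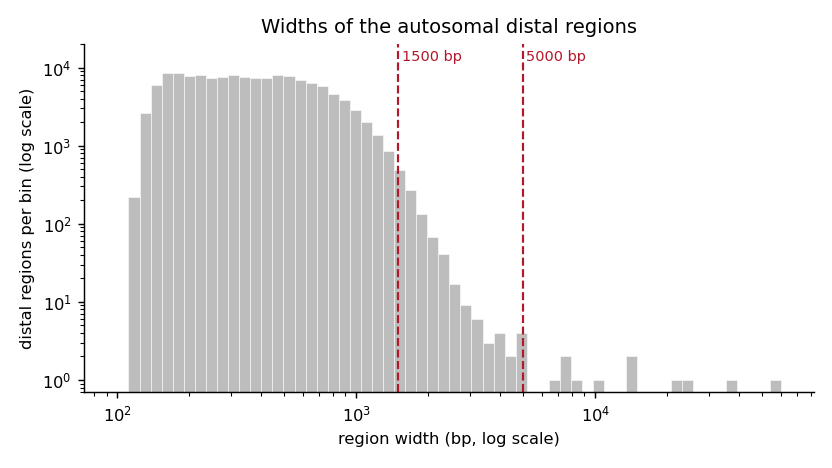
Widths of the 137897 autosomal distal regions, as number of regions per bin, with both axes on a log scale. The dashed lines mark 1500 and 5000 bp, between which the 825 broad regions lie on the falling tail of a continuous distribution.

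Sequences show how unlike each other the members were. The first set below is the central 200 bp of 2 members among the 5 of highest GC content, of a member in a coding exon of Pou3f3, and of the member of lowest GC content, with CpG dinucleotides in capitals. All sequences are the forward strand of GRCm38 (mm10) from RefSeq.
Mir17hg, chr14:115041385-115041584, intergenic: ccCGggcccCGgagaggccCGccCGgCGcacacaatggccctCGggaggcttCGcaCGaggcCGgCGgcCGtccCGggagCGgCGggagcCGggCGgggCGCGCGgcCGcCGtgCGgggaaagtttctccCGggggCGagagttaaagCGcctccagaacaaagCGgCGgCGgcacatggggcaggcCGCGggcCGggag
Otud7a, chr7:63758226-63758425, coding exon: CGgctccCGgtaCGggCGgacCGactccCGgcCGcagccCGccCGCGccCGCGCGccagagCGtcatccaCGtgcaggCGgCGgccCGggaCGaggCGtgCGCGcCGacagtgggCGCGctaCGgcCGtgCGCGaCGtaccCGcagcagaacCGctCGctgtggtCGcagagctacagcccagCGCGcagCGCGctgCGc
Pou3f3, chr1:42697895-42698094, coding exon: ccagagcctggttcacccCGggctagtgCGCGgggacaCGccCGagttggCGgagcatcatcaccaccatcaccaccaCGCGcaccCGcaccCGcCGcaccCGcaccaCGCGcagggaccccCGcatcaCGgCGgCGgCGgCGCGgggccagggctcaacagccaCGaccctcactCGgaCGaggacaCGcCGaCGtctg
Zfp984, chr4:147757132-147757331, intron: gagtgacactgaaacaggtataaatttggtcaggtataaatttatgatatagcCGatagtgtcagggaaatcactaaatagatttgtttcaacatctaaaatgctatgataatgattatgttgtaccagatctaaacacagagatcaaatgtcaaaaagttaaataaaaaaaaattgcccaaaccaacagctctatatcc
The windows near Mir17hg, the host transcript of the miR-17-92 cluster, in Otud7a, a deubiquitinase gene, and in Pou3f3, a neural POU factor gene, held 31, 39 and 27 CpG dinucleotides. The window in an intron of Zfp984 held 1.

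The second set shows matches of the core of the composite OCT4::SOX2 motif, TTGTNATGC, searched on both strands, with each match in capitals. In the Pou5f1 window a KLF match, GGGNGTGG, is also in capitals.
Pou5f1, chr17:35503967-35504147, intergenic, upstream: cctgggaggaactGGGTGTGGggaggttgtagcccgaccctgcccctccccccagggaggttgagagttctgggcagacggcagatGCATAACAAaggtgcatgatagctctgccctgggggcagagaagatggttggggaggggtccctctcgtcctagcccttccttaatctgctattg
Tet2, chr3:133534461-133534521, intron: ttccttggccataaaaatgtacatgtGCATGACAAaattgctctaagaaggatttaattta
Macrod1, chr19:7196268-7196328, intron: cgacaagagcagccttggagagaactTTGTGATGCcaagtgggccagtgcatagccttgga
Macrod1, chr19:7196319-7196379, intron: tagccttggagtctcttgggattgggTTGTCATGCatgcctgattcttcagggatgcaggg
Vmn2r71, chr7:85542265-85542325, intergenic: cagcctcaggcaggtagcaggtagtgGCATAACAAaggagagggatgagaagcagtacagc
Vmn2r71, chr7:85542557-85542617, intergenic: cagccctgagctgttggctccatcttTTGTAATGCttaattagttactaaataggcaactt
Gm8988, chr19:33849836-33849896, intergenic: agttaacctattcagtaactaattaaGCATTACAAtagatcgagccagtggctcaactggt
Gm8988, chr19:33850748-33850808, intergenic: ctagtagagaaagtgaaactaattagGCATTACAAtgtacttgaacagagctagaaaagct
The Pou5f1 and Tet2 members hold 1 core match each and lie near genes listed here under core and naive pluripotency. The other members hold 2 each, the most found in any member.

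Base composition differed between broad and narrower distal regions. It was read in a window of 1 size, the central 500 bp of every region. The median narrower region was 342 bp wide and 95457 of the 137061 were under 500 bp, so most of their windows included sequence outside the region, and width was not fully removed from the measure. Median GC content was 50.2% in broad regions (quartiles 44.8 and 59.4%) and 47.6% in narrower ones (quartiles 44.0 and 51.6%). Broad regions were higher on 18 of 19 autosomes, with a pooled difference of medians of 2.6 percentage points (exact two-sided Wilcoxon signed-rank test over n = 19 autosomes, adjusted p = 2.54e-05 by Benjamini-Hochberg over 20 measures). The CpG observed/expected ratio, the number of CpG dinucleotides over that expected from the C and G content, had a median of 0.331 in broad and 0.219 in narrower regions. Broad regions were higher on 19 of 19 autosomes (exact signed-rank test, adjusted p = 1.91e-05), as they were in CpG dinucleotides per 100 bp, with medians of 2.00 and 1.20 (exact signed-rank test, adjusted p = 1.91e-05). Against the 41604 narrower regions of at least 500 bp, whose windows lie inside them, the GC difference was 1.4 percentage points and still passed (48.8% in narrower; exact signed-rank test, adjusted p = 0.00134). With the width limit at 2000 bp, where 146 broad regions are left, it did not pass (exact signed-rank test, adjusted p = 0.0673). The spread was wider at the top than at the bottom, and the GC content of members ran from 27.8 to 82.0%.

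The upper end of that spread was CpG-island-like. A center was called so when its 500 bp had at least 50% GC and a CpG ratio of at least 0.6. This held for 160 of 825 broad regions, 19.4% (95% Wilson interval 16.8 to 22.2%), and for 3585 narrower ones, 2.62% (2.53 to 2.70%). The share was higher in broad regions on 19 of 19 autosomes, with a pooled difference of 16.8 percentage points (95% interval 14.2 to 19.6; exact signed-rank test, adjusted p = 1.91e-05). Among narrower regions of at least 500 bp it was 5.24%, and the difference of 14.2 points passed (exact signed-rank test, adjusted p = 3.81e-05). These intervals cover counting error only, since regions are not replicates of a condition. Broad promoter-proximal regions were CpG-island-like in 84.6% (2264 of 2675), with a median GC content of 69.0%. When the CpG-island-like centers were taken out of both sets, a choice made after seeing the data, median GC content was 48.0% against 47.4% and the difference no longer passed (exact signed-rank test, adjusted p = 0.189).

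**Figure D2:**
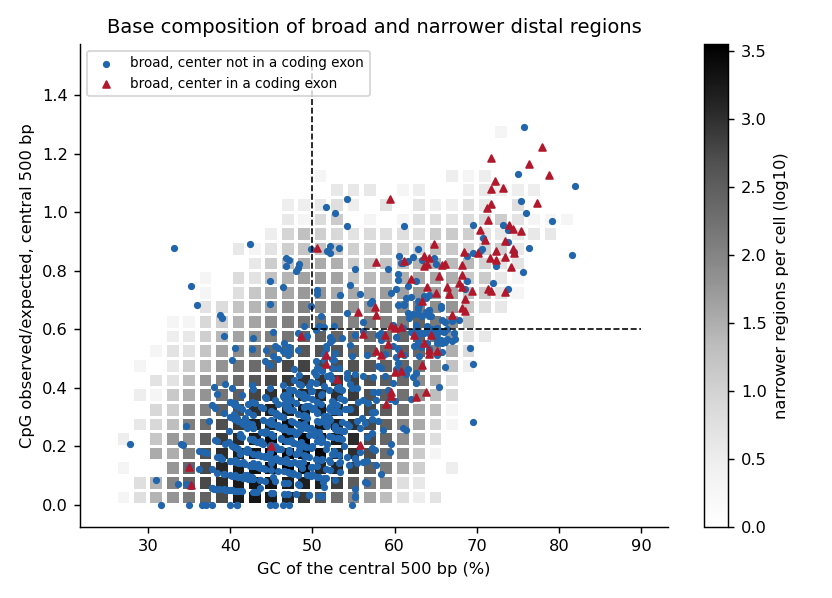
GC content against the CpG observed/expected ratio of the central 500 bp. Points and triangles are the 825 broad distal regions, and grey cells hold the narrower distal regions, darker with more regions on a log10 scale. Dashed lines enclose the CpG-island-like corner, which holds 160 broad regions, 62 of them with the center in a coding exon.

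The 5 members of highest GC content were among these. The highest, 82.0%, was the 2766 bp member at chr14:115040102-115042867, centered 1.39 kb from the nearest TSS of Mir17hg and outside any annotated gene. It was followed by members in an intron of Prdm11 (81.6%), in an intron of the non-coding gene Lncppara (79.2%), in a coding exon of Dact3 (78.8%), a modulator of WNT signaling, and in a coding exon of Otud7a (78%). The members of lowest GC content were in an intron of Zfp984 (27.8%), in a non-coding part of an exon of Cwc22 (31%), in intergenic sequence nearest Zfp157 (31.6%), in an intron of Dock2 (33.2%) and in an intron of the pseudogene Gm18294 (33.6%). Of these 5, the members in Zfp984 and near Zfp157 had multi-copy centers, as defined below.

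Exons were more frequent under the centers of broad regions. The center lay in an exon of any annotated transcript in 124 broad regions, 15% (12.8 to 17.6%), and in 6.49% of narrower ones, and the broad share was higher on 18 of 19 autosomes (exact signed-rank test, adjusted p = 2.54e-05). For coding exons the numbers were 90 of 825, 10.9% (8.96 to 13.2%), against 3.04%, higher on 19 of 19 autosomes (exact signed-rank test, adjusted p = 1.91e-05). Introns held the center of 37.7% of broad and 46.9% of narrower regions, lower on 16 of 19 autosomes (exact signed-rank test, adjusted p = 0.000181). Intergenic sequence held 47.3 and 46.6% (difference 0.664 percentage points, 95% interval -2.73 to 4.09; exact signed-rank test, adjusted p = 0.937). The broad share passed as higher in 3 settings, by 4.11 points with distances from the edge (exact signed-rank test, adjusted p = 0.0216), by 5.20 over 10 kb from a TSS (adjusted p = 0.00276, same exact test) and by 4.24 without CpG-island-like centers (adjusted p = 0.00809, same exact test). Exonic bases made up 15.2% of all bases in broad regions and 6.76% in narrower ones, and 111 members were at least 50% exonic.

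Coding-exon members sat in long exons. The coding exon under the center had a median length of 1417.5 bp in broad regions (quartiles 797 and 2083.75 bp) and of 300 bp in narrower ones (166 and 875 bp). This is given without a test, since a wide region has more room in a long exon. The longest was an exon of 5454 bp in Zfhx3, a zinc finger homeobox gene, which contained the whole of a 1779 bp member at chr8:108946439-108948217. The single large exon of Tchh, which encodes the hair follicle protein trichohyalin, held 2 members of 1552 and 2039 bp. Other members lay in coding exons of Plec, a cytoskeletal linker (exon of 3381 bp), Shroom3, a regulator of apical constriction (exon of 3163 bp), Pcdh10, a protocadherin (exon of 2688 bp), Rest, the repressor of neuronal genes (exon of 2279 bp), and Shank3, a postsynaptic scaffold (exon of 2257 bp). These exons were named from the longest of the list, after their values were seen. The 90 members had a median GC content of 64.9%, and 62 of them were CpG-island-like.

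Seen from the other side, 38.8% of the CpG-island-like members (62 of 160) had the center in a coding exon, against 4.21% of the other members (28 of 665). A further 5 were in non-coding parts of exons, 41 in introns and 52 in intergenic sequence. The nearest TSS belonged to a protein-coding gene for 106 of the 160, and 48 were centered more than 10 kb from any TSS. Whether any of them is an unannotated promoter was not tested. Of the 160, 23 had their center within 1 kb of a TSS of RefSeq, and 43 had an edge within 1 kb of a GENCODE TSS. Without the CpG-island-like centers the exon share was 8.57% in broad and 5.96% in narrower regions and did not pass (exact signed-rank test, adjusted p = 0.189), nor did the coding-exon share, 4.21% against 2.52% (exact signed-rank test, adjusted p = 0.692). Among regions centered over 10 kb from a TSS the exon shares, 5.16 and 3.23%, did not pass either (exact signed-rank test, adjusted p = 0.233).

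**Figure D3:**
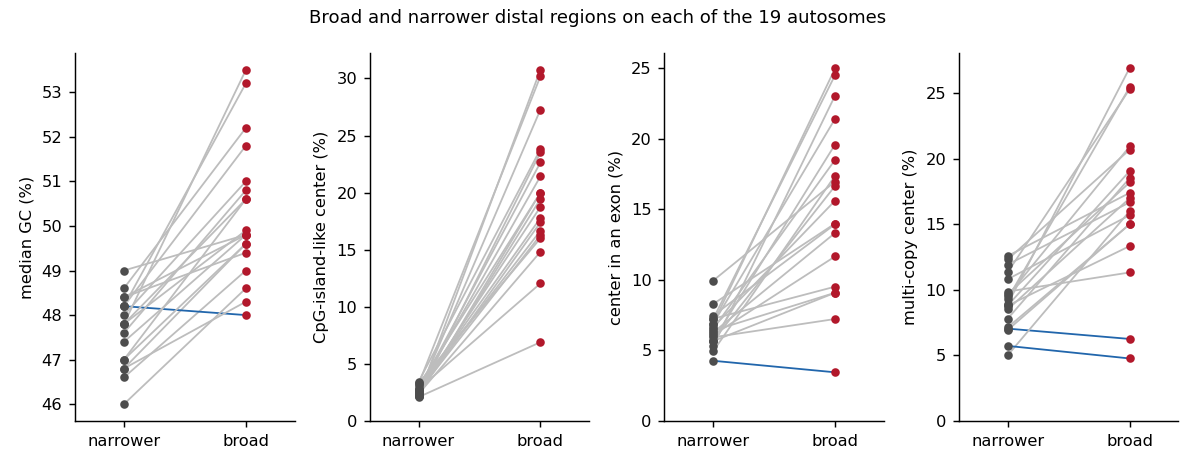
Each of the 19 autosomes as a line from its narrower distal regions (grey points) to its broad distal regions (red points), for the median GC content and the percent of regions with a CpG-island-like center, with the center in an exon and with a multi-copy center. Blue lines mark the autosomes on which broad regions were lower, 1 for GC content, 0 for CpG-island-like centers, 1 for exons and 2 for multi-copy centers.

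Members also differed from narrower regions in how often their sequence is repeated. A center was called multi-copy when over 50% of the 31-base words in its 500 bp occur more than once in the assembled chromosomes. Copies of a word within the window itself count too. This measure was added after seeing the data. Multi-copy centers made up 17.6% of broad regions (145 of 825, 15.1 to 20.3%) and 9.09% of narrower ones, higher on 17 of 19 autosomes (exact signed-rank test, adjusted p = 5.45e-05). Among windows under 50% soft-masked the shares were 3.22 and 1.62% and did not pass (exact signed-rank test, adjusted p = 0.302), nor did they with the width limit at 2000 bp, at 20.5 and 9.13% (exact signed-rank test, adjusted p = 0.159). Every word was multi-copy in 22 broad regions, 2.67%, and in 0.519% of narrower ones. Of the 145, 125 were also at least 50% soft-masked, that is, marked as repeats in the assembly. Some CpG-island-like members were repeated sequence too, with 23 of the 160 at least 50% soft-masked and 24 multi-copy. Soft-masked sequence as such had a median of 16.4% in broad and 15.2% in narrower centers and did not pass (higher on 10 of 19 autosomes; exact signed-rank test, adjusted p = 0.311). It passed as higher in broad regions in 5 other settings, with adjusted p from 0.00337 over whole regions to 0.0297 with distances from the edge (exact signed-rank tests), and its direction turned in 3 others. Centers at least 50% soft-masked made up 24.6% of broad regions (203 of 825, 21.8 to 27.7%) and 18.6% of narrower ones (18.4 to 18.8%), a share that was not tested. Reads that fit several copies can raise or blur a peak, and their part in these widths was not tested.

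Few 100 kb windows held several members. The window of 100 kb with most members, 5, lay at chr4:147200001-147300000 with Zfp988 as the nearest protein-coding gene of every one. All 5 had multi-copy centers, with 73.2 to 93.4% of words multi-copy, widths of 1663 to 3738 bp and GC contents of 34.0 to 45.2%. The next window, chr17:3000001-3100000, held 4 members, all with Scaf8 as the nearest protein-coding gene, and none of them had a multi-copy center. These were 5 of 55 and 4 of 28 regions in their windows. A further 4 windows held 3 members each, among 7 to 32 regions, while 39 held 2 and 726 held 1. In all, 22 members, 2.67%, began within the first Mb of assembled sequence of an autosome, next to the centromere, against 0.836% of narrower regions, and 7 of the 22 were multi-copy.

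Nearest genes were otherwise scattered. The 825 members had 745 different nearest protein-coding genes, of which 678 were nearest to a single member. Zfp988 was nearest to 6, Scaf8, an RNA polymerase II binding factor gene, to 4. Genes nearest to 3 members each included Cntnap5a, Gpc5, Sfi1, Tcte2, Vmn1r2 and Zfhx3. Genes with names in Zfp were nearest to 37 members, 4.48% (3.27 to 6.12%), and to 1.96% of narrower regions. Genes of the vomeronasal receptor families (Vmn) were nearest to 14, 1.70% (1.01 to 2.83%), and to 0.441% of narrower ones, and olfactory receptor genes (Olfr) to 7, 0.848%, against 0.740%. These name groups were chosen after the nearest genes had been seen and carry no test.

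Broad regions were centered closer to TSSs. The median distance was 9660 bp for broad and 12276.5 bp for narrower regions, lower on 15 of 19 autosomes (exact signed-rank test, adjusted p = 0.00175). Of the members, 238 lay 1 to 5 kb from a TSS (28.8%), 180 at 5 to 10 kb (21.8%), 343 at 10 to 50 kb (41.6%) and 64 beyond 50 kb (7.76%), where narrower regions had 23.0, 20.3, 42.8 and 13.9%. A region distal by its center was not always distal by its edge. Of the members, 10 covered a TSS, 102 (12.4%) had an edge within 1 kb of one, which depends directly on the width that chose them, and 61 (7.39%) had their center within 1 kb of a RefSeq TSS, against 2.75% of narrower regions. With distances taken from the nearest edge in both sets, the medians were 11662 and 12579.8 bp and did not pass (exact signed-rank test, adjusted p = 0.227), and without CpG-island-like centers they did not pass either (adjusted p = 0.109, exact signed-rank test).

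The neighborhood of the members depended on its scale. Another region lay within 5 kb of the edge of 55.4% of broad (457 of 825) and 62.8% of narrower regions, lower on 17 of 19 autosomes (exact signed-rank test, adjusted p = 0.00514). Within 10 kb, a distance added after seeing the data, the order turned, with 84.8% of broad and 81.0% of narrower regions (exact signed-rank test, adjusted p = 0.00195). The turn came from the distances between. The next region began 1 to 4 kb from the edge for 21.2% of members (175 of 825, 18.6 to 24.1%) and 31.3% of narrower regions, but 4 to 8 kb away for 35.3% of members (291 of 825, 32.1 to 38.6%) and 20.1% of narrower ones. Under 1 kb the shares were 23.3 and 24.6%. The share at 4 to 8 kb was 18.5% in distal regions under 500 bp, 22.7% at 500 to 999 bp and 29% from 1000 bp up to the width limit. These distance classes were set after seeing the data and carry no test. Peaks that were merged into a broad region are not counted as its neighbors here.

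Members were spread over all autosomes, from 4.03 per 1000 distal regions on chromosome 6 to 8.92 on chromosome 4, with a median of 5.90. Chromosome 4 had the most, 83, and was the only autosome on which broad regions had the lower median GC content, 48.0 against 48.2%.

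Factor motifs were compared in the same central windows. The palindrome GCCNNNGGC bound by AP-2 factors, regulators of trophectoderm and ectoderm, was in the central 500 bp of 21.8% of broad (180 of 825) and 15.5% of narrower regions, higher on 15 of 19 autosomes (exact signed-rank test, adjusted p = 0.000593). Without CpG-island-like centers the shares were 15.5 and 14.9% (exact signed-rank test, adjusted p = 0.498). The call was also lost over 10 kb from a TSS and at 2000 bp (exact signed-rank tests, adjusted p = 0.0601 and 0.303), and against narrower regions of at least 500 bp the difference was 3.37 in place of 6.35 percentage points (exact signed-rank test, adjusted p = 0.0118). The AP-1 site TGANTCA was less frequent, 12.1% against 16.5% (difference -4.42 percentage points, 95% interval -6.49 to -2.01; exact signed-rank test, adjusted p = 0.00158), a call lost without CpG-island-like centers, at 14.3 and 16.8%, and at 2000 bp (exact signed-rank tests, adjusted p = 0.0892 and 0.0579). So was CCANNAGGG, part of the CTCF site, at 7.88% against 11.2% (difference -3.28, -4.94 to -1.24; exact signed-rank test, adjusted p = 0.00400), a call lost in windows under 50% soft-masked and at 2000 bp (exact signed-rank tests, adjusted p = 0.0617 and 0.280). The KLF site GGGNGTGG had nearly equal shares of 20.6 and 20.3% (difference 0.342, -2.29 to 3.24; exact signed-rank test, adjusted p = 0.984).

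Motifs of the pluripotency factors were rare in both sets. The OCT4::SOX2 core was in the central 500 bp of 17 broad regions, 2.06% (1.29 to 3.28%), and of 2.16% of narrower ones (difference -0.0946, -0.869 to 1.12; exact signed-rank test, adjusted p = 0.223). The octamer ATGCAAAT, which can overlap the core by its first 4 letters, was in 3.39 and 4.28%, the SOX site CCATTGTT in 2.91 and 2.86%, and the ESRRB site TCAAGGTCA in 2.42 and 2.70%, and none of the 3 passed (exact signed-rank tests, adjusted p = 0.322, 0.440 and 0.464). The 95% intervals of these differences were -1.93 to 0.583, -0.902 to 1.43 and -1.13 to 1.01 percentage points. With the width limit at 2000 bp the octamer, at 1.37 and 4.28%, and the ESRRB site, at 1.37 and 2.70%, passed as lower in broad regions (exact signed-rank tests, adjusted p = 0.00781 and 0.0402). The core passed as lower in the central 200 bp, at 0.970 and 1.06% (exact signed-rank test, adjusted p = 0.0201). At the shares of all members in the central 500 bp a chromosome has about 1 member with a match, so the pooled intervals are the better guide. In the calls at 2000 bp and in the central 200 bp, most autosomes had no broad region with a match. A broad share of 0 counts as lower in the test, so these calls cannot show that the sites are rarer in broad regions. A match shows only that the letters are there.

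Within whole members the core occurred at least once in 61 members and 2 times in 4. The letter at its free position differed with the soft-masking of the center. Matches were counted over the whole member, so a match can lie outside masked sequence. The bases printed around the Tet2 match, for example, were 18.0% soft-masked. In members with a center at least 50% soft-masked, 24 of 31 matches (77.4%) read TTGTAATGC on the strand shown by the motif. In the other members 5 of 34 (14.7%) did so, and 12 of 34 (35.3%) read TTGTTATGC, as the Pou5f1 match printed above does. Both Gm8988 matches and 1 of the Vmn2r71 matches above have the TTGTAATGC form. Narrower regions were read in their central 500 bp only. At widths of 750 to 1249 bp, 384 of 409 matches in masked windows (93.9%) had that form, against 57 of 222 (25.7%) in unmasked ones. At the other narrower widths it was 383 of 545 (70.3%) in masked and 443 of 1820 (24.3%) in unmasked windows.

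Width and masking together ordered the core motif. In windows at least 50% soft-masked, 1.53% of regions under 250 bp held the core. The share was 11.6% (10.3 to 13.0%) at 750 to 999 bp and 14.1% (12.1 to 16.3%) at 1000 to 1249 bp, then 8.85% from 1250 bp up to the limit and 3.57% (1.65 to 7.57%, 6 of 168) at 1500 to 1999 bp. In windows under 50% soft-masked it ran between 1.57 and 2.01% up to 1999 bp. These intervals cover counting error only. They treat regions as independent, although most matches in masked windows at 750 to 1249 bp had the same form. The share of CpG-island-like centers was higher in each wider bin up to 2499 bp, from 1.12% under 250 bp to 13.9% from 1250 bp up to the limit, 18.9% at 1500 to 1999 bp and 23.8% (16.7 to 32.8%, 25 of 105) at 2000 to 2499 bp, and it was 17.1% (8.53 to 31.3%, 7 of 41) in the widest bin. Bins share no regions, and no test was made across them.

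**Figure D4:**
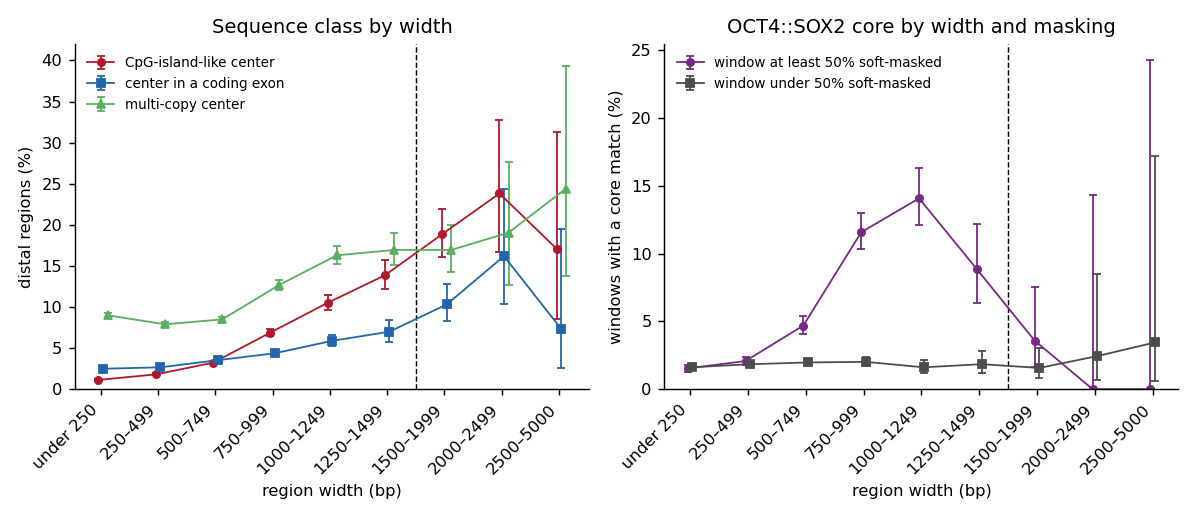
Left, percent of distal regions with a CpG-island-like center, with the center in a coding exon or with a multi-copy center, by region width in bp. Right, percent of central 500 bp windows with an OCT4::SOX2 core match, for windows at least or under 50% soft-masked. Bars are 95% Wilson intervals and the dashed line is at 1500 bp. The masked curve on the right peaks at 14.1% below the limit, while the share of CpG-island-like centers on the left is 13.9% just below it and 18.9% just above.

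Members near genes of pluripotency and lineage choice were counted as genes with a broad distal region centered within 50 kb of one of their TSSs. This held for 1210 of 20780 autosomal protein-coding genes, 5.82%, while 97.1% had a narrower region at that distance. Of 30 genes of core and naive pluripotency, 7 had one (23.3%), Pou5f1, Nanog, Klf5, Tet2, Gbx2, Mycn and Rif1. Of 25 genes of LIF, FGF and WNT signaling, 4 did (16.0%), and of 14 neural genes 5 did (35.7%). The formative and post-implantation epiblast list had 2 of 14 (14.3%), Foxd3 and Lef1, and Lef1 is also among the signaling genes. The Hox clusters had 4 of 39 (10.3%), the mesendoderm 1 of 12 (8.33%, Wnt3) and the trophectoderm 1 of 16 (6.25%, Cdx2). The primitive endoderm had 0 of 15, which allows a share of up to 20.4% by the Wilson interval. Olfactory receptor genes, silent in ES cells, had 19 of 1127 (1.69%). The lists are small and their intervals wide, and nearby genes share members, as the 4 Hoxc genes do.

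**Figure D5:**
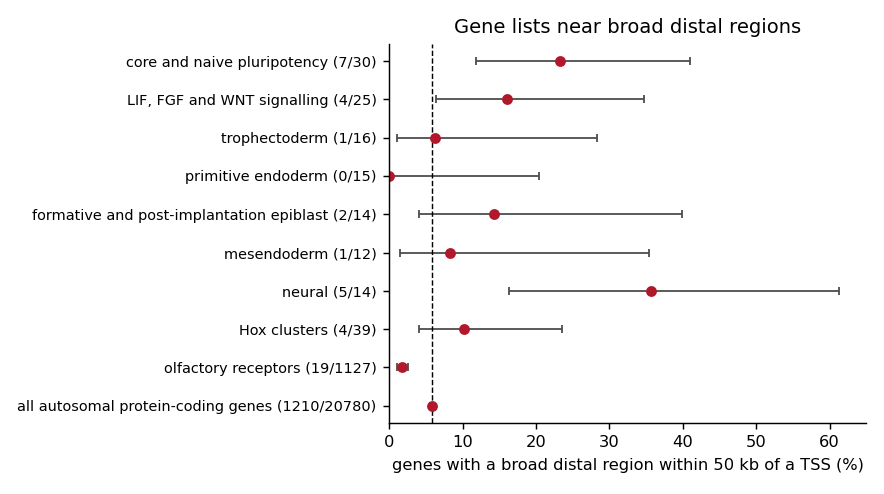
Percent of the genes in each list with a broad distal region centered within 50 kb of a TSS, with 95% Wilson intervals and the numbers of genes beside each name. The dashed line is the share of all 20780 autosomal protein-coding genes, 5.82%, above which the pluripotency list sits at 23.3% and the neural list at 35.7%.

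Distances and sides of the members named below are to the nearest annotated TSS of the gene, which need not be its main one. The member nearest to a pluripotency gene was that of Mycn, a MYC family gene that supports proliferation of ES cells. It was 1600 bp wide, at chr12:12942243-12943842, centered 1.13 kb upstream of the TSS, with a GC content of 47.6% and 3 matches of the ESRRB site. ESRRB is an orphan nuclear receptor of the naive state. The 3 matches, in capitals, follow, and the bases around the last run past the edge of the region.
Mycn, chr12:12943261-12943301: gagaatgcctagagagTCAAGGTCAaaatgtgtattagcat
Mycn, chr12:12943785-12943825: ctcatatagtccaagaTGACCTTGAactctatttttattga
Mycn, chr12:12943816-12943856: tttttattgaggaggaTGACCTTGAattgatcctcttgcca

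The Pou5f1 member, at chr17:35503751-35505356, was 1606 bp wide and centered 1.46 kb upstream, in the sequence known to hold the enhancers of the gene. It had a GC content of 52.2%, a CpG ratio of 0.147 and 1 core match. At Nanog, which encodes a homeodomain factor of the same network, the member was 2242 bp wide, at chr6:122711479-122713720, centered in an intron 5.03 kb from the TSS, with 932 bp in exons and no core match. The Tet2 member, at chr3:133532424-133534612, was 2189 bp wide, in an intron 10.8 kb from the TSS of this 5-methylcytosine dioxygenase gene, and 57.2% of its center was soft-masked. None of these centers, nor that of the Mycn member, was CpG-island-like.

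The other members of that list differed in kind. That of Rif1, a gene of telomere and replication timing control, was 15.9 kb downstream of the TSS at chr2:52127209-52128952. Its center was 100% soft-masked with 96.0% multi-copy words. The one at Klf5, a KLF factor gene of naive cells, was 41.2 kb downstream at chr14:99339525-99341156 with a GC content of 43.2%. For Gbx2, a homeobox gene induced by LIF, the member at chr1:89967681-89969348 was 37.3 kb upstream, but its center was in a coding exon of Asb18, with 76.4% GC and a CpG ratio of 1.17.

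Among the signaling genes, Lifr, the LIF receptor, had a member of 2096 bp at chr15:7115201-7117296, 13.3 kb from the TSS, with 2 octamer matches and a GC content of 41.6%. Its co-receptor Il6st (gp130) had a member of 2060 bp at chr13:112439006-112441065, 24.0 kb upstream, with 6 KLF matches. Spry2, an inhibitor of FGF signaling, had the 1500 bp member at chr14:105858892-105860391, 37.2 kb downstream, which is among the narrowest. Lef1, a nuclear effector of WNT signaling, had one of 1797 bp at chr3:131083678-131085474, 25.9 kb upstream.

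At the neural genes most members were rich in CpG. The members at Pou3f3, Pax3, Neurog1 and Pou3f2, genes of neural transcription factors, had GC contents of 70.4, 73.2, 61.6 and, for the pair at Pou3f2, 53.2 and 59.8%, and that at Pax6 had 53.4%. The Pou3f3 member, at chr1:42697155-42698834, lay wholly in exon sequence, with its center in a coding stretch of 1491 bp. In 4 of these 6 members, those at Pou3f3, Pax3 and Neurog1 and the upstream one at Pou3f2, the center was CpG-island-like. The Wnt3 member, in an intron of that gene at chr11:103809279-103811271, was of the same kind, with 76.4% GC and a CpG ratio of 0.878. By contrast the members at Cdx2, a trophectoderm factor gene, and Foxd3, a factor gene of the formative state, had GC contents of 53.6 and 44.2% and CpG ratios of 0.253 and 0.0819.

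Grouped by these features, 160 members were CpG-island-like, 203 at least 50% soft-masked, 145 multi-copy and 90 in coding exons, with overlaps, and 441 (53.5%) were none of these. The 441 had a median GC content of 48.2%, a CpG ratio of 0.265 and a median TSS distance of 10506 bp. Their AP-1 share was 16.1%, their CTCF-part share 7.48% and their KLF share 22.9%. CpG-island-like members lay closest to TSSs apart from the coding-exon group, with medians of 4648 and 3186.5 bp, and soft-masked members farthest, at 14920 bp. Of the soft-masked members 60.1% were intergenic, as were 60.7% of the multi-copy ones. The grouping was made after seeing the data and is given as a description.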

How the data were processed

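The 12 ATAC-seq libraries came from ZHBTc4 and 2TS22C ES cells. The authors aligned reads to mm10 (GRCm38) with STAR 2.6.1c, removed duplicates with Picard, called peaks with MACS2 2.1.1.20160309 and merged the peaks of both lines with BEDTools. The deposited values are region starts and ends, positions in bp with no score or count; 0 columns belong to a single library. The authors' methods drop peaks over 5 kb, Input peaks and blacklisted peaks before counting. The list still holds 16 regions over 5 kb, and overlap with the other peaks was not tested.

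Annotation was GENCODE M21 and sequence GRCm38.p6. Members, gene lists and motifs were chosen with earlier results of these data known. Named members were the widest, those next to the width limits, those of extreme GC content and those near genes listed under core and naive pluripotency. The commonest nearest genes, the fullest 100 kb windows and members with 2 core matches were named too. Values of other listed genes were added after they were seen. Broad and narrower regions were compared on each autosome by an exact two-sided Wilcoxon signed-rank test (smallest possible p = 3.81e-06), adjusted over 20 measures at 0.05. Differences of pooled shares have 95% Newcombe intervals. Items withheld from this text are not reported here. Functions were tested on simulated data. With no difference planted, the signed-rank test passed slightly too often for motifs present in few windows. Python 3.11.15, NumPy 2.4.6, SciPy 1.17.1 and pandas 2.3.3 were used.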

Additional observations from a re-analysis of the deposited data

How the results depend on the processing

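No paired analysis was possible because regions were pooled over all libraries and no value belongs to a replicate. For the same reason no library was dropped, and depth is unknown. Of 174 values under alternatives, 114 were called unchanged. For tested values this meant the same direction and the same side of the threshold. For the untested number of broad regions it meant a count near 825. Where a value changed, the cause was not tested. Settings without multi-copy or CpG-island-like centers were added after seeing the data. Values below are broad minus narrower, in percentage points for shares, GC content and masking.

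The count of 825 became 6349 from 1000 bp and 146 from 2000 bp. The share of genes with a broad region was 2.71% within 20 kb and 10.3% within 100 kb. Calls lost were GC content at 2000 bp (2.50) and without CpG-island-like centers (0.600), exon centers over 10 kb from a TSS (1.93) and without CpG-island-like centers (2.61), coding-exon centers in the same 2 settings (2.80 and 1.69), TSS distance by the edge (-917.8 bp), over 10 kb (-2126.5 bp) and without CpG-island-like centers (-1307.5 bp), neighbors within 5 kb over 10 kb from a TSS (-5.32), and multi-copy centers in windows under 50% masked (1.60) and at 2000 bp (11.4).

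Calls gained were soft-masked content against narrower regions of at least 500 bp (3.00), by the edge (3.40), over 10 kb (6.8), over the whole region (4.32) and without CpG-island-like centers (5.40). Intergenic centers gained a call by the edge (4.11), over 10 kb (5.20) and without CpG-island-like centers (4.24). So did the OCT4::SOX2 core in the central 200 bp (-0.0875), and the octamer (-2.91) and the ESRRB site (-1.33) at 2000 bp. For these motif calls most autosomes had no broad region with a match, so the test cannot show a real difference.

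Directions turned for soft-masked content at 2000 bp (-0.100), in the central 1000 bp (-3.30) and without multi-copy centers (-1.20), for intergenic centers against narrower regions of at least 500 bp (-0.557), at 2000 bp (-4.15) and without multi-copy centers (-0.0650), for neighbors within 5 kb at 2000 bp (4.35), within 10 kb (3.81) and 20 kb (2.32), both added after seeing the data, and at the planned limit between these (2.28), and for the core by the edge (0.0582), without multi-copy (0.0179) and without CpG-island-like centers (0.208). The SOX site turned to -0.127, -0.105, -0.885, -0.441, -0.367 and -0.0564 against narrower regions of at least 500 bp, by the edge, over 10 kb, under 50% masked, in the central 200 bp and without multi-copy centers. The KLF site turned to -1.44, -0.152, -0.315, -3.83 and -0.682 against narrower regions of at least 500 bp, by the edge, over 10 kb, at 2000 bp and without CpG-island-like centers, the octamer to 0.0831 under 50% masked, and the ESRRB site to 0.245 without CpG-island-like centers. Except for neighbors at these farther limits, no value that turned passed the test in its new direction. The AP-2 call was also lost over 10 kb and at 2000 bp, AP-1 at 2000 bp and without CpG-island-like centers, and CTCF under 50% masked and at 2000 bp.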
